A study of Mus musculus with 6 samples.

Results

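The genes described here encode the proteasome, its inducible form, its activators and its assembly chaperones in mouse 4T1 cells. They were chosen by symbol from the 12656 genes of the deposited table: Psm followed by a letter from a to g and a digit, without the pseudogene suffix -ps. This gave 49 genes, of which 48 passed the filter on low values (a log2 CPM not below 0 in 3 or more libraries) and were tested among 11931 genes. The log2 CPM values are those the authors deposited, which include an offset described below. The CPM values were computed from them with that offset removed. They are counts of reads scaled to the library sizes that the authors used, which are not the plain sums of reads. The gene below the filter was Psmb9. The 49 comprised 7 genes of the 20S alpha ring, 7 of the constitutive 20S beta ring, 3 inducible beta subunits, 6 ATPases and 11 non-ATPase subunits of the 19S particle, 6 activators and inhibitors, and 7 assembly chaperones. The symbols also took in Psmc3ip and Psme3ip1, which encode binding partners and no subunit. Psma8 and Psmb11 were looked for and were not among the 12656 genes.

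4T1 is a mouse mammary carcinoma line that models triple-negative breast tumours. RNA was sequenced in bulk from 3 libraries of cells given LP-184, a small-molecule DNA-damaging agent, for 48 h, and from 3 libraries of cells given DMSO, the solvent, for which the labels give no time. No dose is labelled, all cells are of a single line, and no label states that replicates came from different cultures, so the p-values here reflect the scatter among these 6 libraries alone and that scatter may be technical. The libraries held 18952393 to 22471753 reads with LP-184 and 18864368 to 21585323 with DMSO over the genes of the table. Correlations of log2 CPM over the genes tested were 0.994 to 0.995 within a group and 0.914 to 0.917 between groups, and no library stood apart. All 6 epithelial markers looked for (Epcam, Krt8, Krt18, Krt7, Krt14, Cdh1) were measured, and their summed level was 3029 to 3053 CPM with LP-184 and 4499 to 4516 CPM with DMSO. Of these, 3 rose (Epcam, Cdh1 and Krt14) and 3 fell (Krt7, Krt8 and Krt18), and Krt7 changed most in CPM, at 705 with LP-184 and 1926 with DMSO. Of 6 leukocyte markers, 2 were in the table (Cd68 and Csf1r), with a summed level of 59.9 to 72.2 CPM in LP-184 libraries and 11.2 to 12.9 CPM in DMSO libraries, and of 4 fibroblast markers only Pdgfra was, at 8.12 to 10.3 CPM with LP-184 and 6.37 to 7.62 CPM with DMSO. The other leukocyte and fibroblast markers, and all endothelial and erythroid markers looked for, were not among the genes of the table. The part of these shifts in the results was not tested, and in bulk RNA fewer cells of a type and less RNA per cell cannot be told apart.

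The proteasome degrades proteins that carry ubiquitin chains. Its 20S core is a barrel of alpha rings around beta rings, with the proteolytic sites on the beta subunits Psmb5, Psmb6 and Psmb7, and the 19S particle binds, unfolds and feeds in the substrate. Interferon signalling is known to raise Psmb8, Psmb9 and Psmb10, which replace those catalytic subunits in newly built particles (the immunoproteasome), and Psme1 and Psme2, which form the PA28 activator. The immunoproteasome is known for cutting peptides that MHC class I presents.

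Promoter windows of 4 genes are printed because the comparisons below turn on these genes: Psmb8 and Psmb9, the inducible catalytic subunits with the lowest levels, Psmd4, the member that rose most, and Psmd14, the member that fell most. Each is the 250 bases before the RefSeq gene start in GRCm38.p6, 5′ to 3′ on the gene's strand. The positions are chr17:34197945-34198194, plus strand, for Psmb8, chr17:34187331-34187580, minus strand, for Psmb9, chr3:95042615-95042864, minus strand, for Psmd4, and chr2:61711444-61711693, plus strand, for Psmd14. Capitals mark matches, on either strand, to the interferon-stimulated response element (ISRE), the gamma-interferon activated site (GAS), the antioxidant response element and the CCAAT box (CCAAT).
Psmb8: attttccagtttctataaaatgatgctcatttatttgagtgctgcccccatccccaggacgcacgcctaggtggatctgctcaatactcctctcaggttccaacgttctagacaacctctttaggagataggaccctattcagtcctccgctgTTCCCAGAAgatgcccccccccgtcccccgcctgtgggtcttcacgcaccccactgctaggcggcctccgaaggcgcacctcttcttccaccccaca
Psmb9: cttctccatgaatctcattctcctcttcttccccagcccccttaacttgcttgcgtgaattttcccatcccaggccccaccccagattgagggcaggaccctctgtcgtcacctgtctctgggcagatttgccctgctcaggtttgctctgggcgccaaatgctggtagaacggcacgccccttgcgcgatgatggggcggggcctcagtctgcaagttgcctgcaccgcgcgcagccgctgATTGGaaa
Psmd4: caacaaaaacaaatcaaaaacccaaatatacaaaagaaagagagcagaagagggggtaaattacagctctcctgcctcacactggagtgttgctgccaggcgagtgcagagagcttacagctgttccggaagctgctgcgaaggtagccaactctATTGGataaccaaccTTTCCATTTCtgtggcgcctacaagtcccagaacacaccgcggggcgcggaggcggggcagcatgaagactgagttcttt
Psmd14: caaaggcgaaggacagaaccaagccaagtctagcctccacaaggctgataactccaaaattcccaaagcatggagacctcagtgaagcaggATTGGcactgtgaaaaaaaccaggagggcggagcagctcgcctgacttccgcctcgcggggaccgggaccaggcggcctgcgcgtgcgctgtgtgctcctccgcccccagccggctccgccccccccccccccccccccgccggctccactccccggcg
The Psmb8 window held a GAS match, TTCCCAGAA, beginning 97 bases before the start. The Psmb9 window held only a CCAAT box, 8 bases before the start. Its upstream end reaches into Tap1, a gene on the other strand whose RefSeq span begins at 34187556. The Psmd4 window held an ISRE match, TTTCCATTTC, 80 bases before the start, and a CCAAT box, 95 bases before it, and the Psmd14 window held a CCAAT box 159 bases before the start. No marked matches overlapped. The search of the members covered 46 RefSeq promoters of 42 of the 49 genes. Promoters of the other members, Psmg2 among them, were left out of it. The set of all mouse promoters was not restricted in the same way, so the percentages below compare sets chosen differently. An ISRE match stood in 3 of the 46 (Psmb3, Psmd4 and Psmd9, 6.52%), against 2.98% of 32851 mouse promoters. A GAS match stood in 2 (Psmb8 and Psmg1, 4.35%, against 7.02%), an antioxidant response element in 1 (Psmd12, 2.17%, against 2.47%), and a CCAAT box in 15 (32.6%, against 33.8%). These are letter matches in this window and not binding sites.

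Across the proteasome genes, LP-184 changed many members by small amounts and in both directions. At an adjusted p under 0.05 (limma, Benjamini-Hochberg over all genes tested), 39 of 48 members were called (81.2%), against 78.3% of all genes, so the share called is close to the background. Of the members, 21 were higher with LP-184 (43.8%, against 38.3% of all genes) and 18 lower (37.5%, against 40.0%). Their median log2 fold change (LP-184 minus DMSO) was 0.01, and that of all genes was -0.01. The sizes were smaller than usual in this table: the median absolute log2 fold change was 0.29 for the members and 0.47 for all genes. A change of at least 1.5-fold was called for 9 members (18.8%, against 41.2% of all genes), and of at least 2-fold for 1 member, Psmd14 (2.08%, against 20.7%). The members above 1.5-fold were Psmd4, Psmd2, Psmc5, Psmf1 and Psmg2, which were higher, and Psmd14, Psme4, Psmd1 and Psma3, which were lower. The LP-184 and DMSO libraries did not overlap for 40 of 48 members (83.3%, against 79.1% of all genes). Centring each library on its median moved the median of all genes by 0.09, and 28 members were then higher and 16 lower (58.3% and 33.3%, against 43.5% and 35.4% of all genes).

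**Figure D1:**
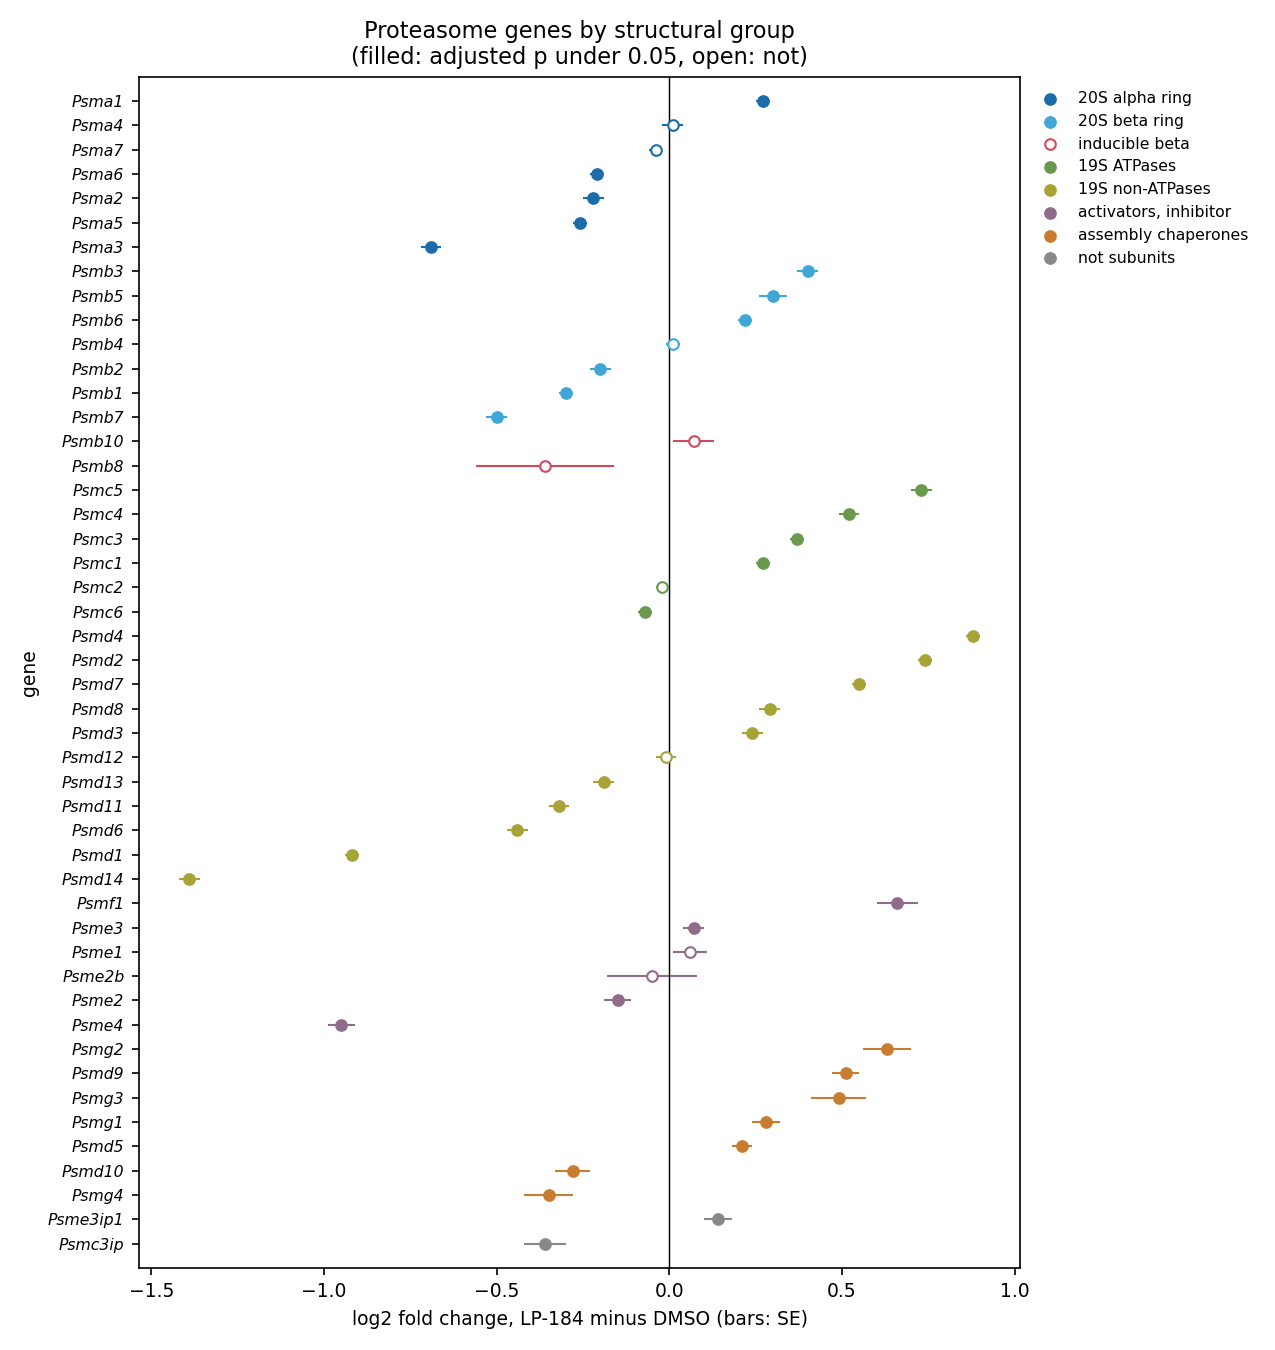
Log2 fold change (x axis, LP-184 minus DMSO, bars SE) of the 48 tested genes, grouped on the y axis by structure and coloured likewise, with filled points for an adjusted p under 0.05 and open points otherwise. Every group but the inducible beta subunits holds filled points on both sides of 0, and the values run between -1.39 for Psmd14 and 0.88 for Psmd4.

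The inducible set did not move as a block: none of its 4 tested genes rose, Psme2 fell slightly, and Psmb8, Psmb10 and Psme1 did not pass the test. Psmb8 (chromosome 17, 34198195 to 34201454), the inducible chymotrypsin-like subunit, was measured at 3.72, 2.63 and 2.93 CPM in LP-184 libraries and 3.59, 3.91 and 4.44 CPM in DMSO libraries. The LP-184 values were the lower ones, save that replicate 1 lay within the DMSO range. The log2 fold change was -0.36 ± 0.20 (SE, adjusted p = 0.092 by limma, 0.0058 to 0.629 over the alternatives), and leaving out LP-184 replicate 1 brought the call, at -0.50 (adjusted p = 0.037). Psmb9 (chromosome 17, 34182030 to 34187330), the inducible counterpart of Psmb6, had 12, 16 and 10 reads in LP-184 libraries and 22, 40 and 8 reads in DMSO libraries. That is 0.526, 0.766 and 0.524 CPM with LP-184 and 1.18, 1.86 and 0.428 CPM with DMSO. The lowest value of all was a DMSO library, so the groups overlapped. Without the filter on low values its log2 fold change was -0.66 ± 0.40 (SE, adjusted p = 0.136, limma), whereas the authors' deposited table gives -0.97 with an adjusted p of 0.025. Beside Psmb9, 212 exonic bases (5.8% of its exons) overlap Tap1 on the other strand, and for Psmb8 14.7% of exonic bases overlap the antisense gene Gm20496. The sources used here do not state the strand setting of the counting, so reads there cannot be assigned to a strand.

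Psmb10 (chromosome 8, 105935728 to 105938392), the inducible trypsin-like subunit, was the most abundant of these 3 genes. It was at 35.7, 34.1 and 33.5 CPM in LP-184 libraries and 33.3, 33.9 and 31.2 CPM in DMSO libraries, with a log2 fold change of 0.07 ± 0.06 (SE, adjusted p = 0.303, limma). The groups overlapped. Median centring gave 0.16 (adjusted p = 0.022) and quantile normalization 0.15 (adjusted p = 0.028). Per kilobase of exon the mean level of Psmb10 was 20.2 CPM with LP-184 and 19.2 CPM with DMSO, and that of Psmb8 was 0.916 CPM with LP-184 and 1.18 CPM with DMSO. The exon length used here joins the exons of all GENCODE transcripts of a gene. For Psmb8 it is 3381 bases, more than its RefSeq span of 3.26 kb. Levels per kilobase thus depend on the annotated transcripts and do not rank genes against each other. The PA28 genes lie close together on chromosome 14. Psme1 (55578494 to 55581527) was at 81.9, 77.7 and 87.7 CPM with LP-184 and 82.1, 75.2 and 80.3 CPM with DMSO, and the groups overlapped (log2 fold change 0.06 ± 0.05, SE, adjusted p = 0.252, limma). Psme2 (55587440 to 55591101) was at 89.5, 90.9 and 92.9 CPM with LP-184 and 99.8, 101 and 103 CPM with DMSO. All LP-184 values of Psme2 lay below all DMSO values, and it fell by 0.15 ± 0.04 on the log2 scale (SE, adjusted p = 0.00042, limma). That call was lost on median centring, at -0.07 (adjusted p = 0.108), where Psme1 was called higher, at 0.14 (adjusted p = 0.0045). Psme2 shares 99.4% of 794 aligned bases with Psme2b, which was at 7.83 ± 0.257 CPM with LP-184 and 8.13 ± 0.41 CPM with DMSO (SD, n = 3), so reads of these genes may be split between them.

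**Figure D2:**
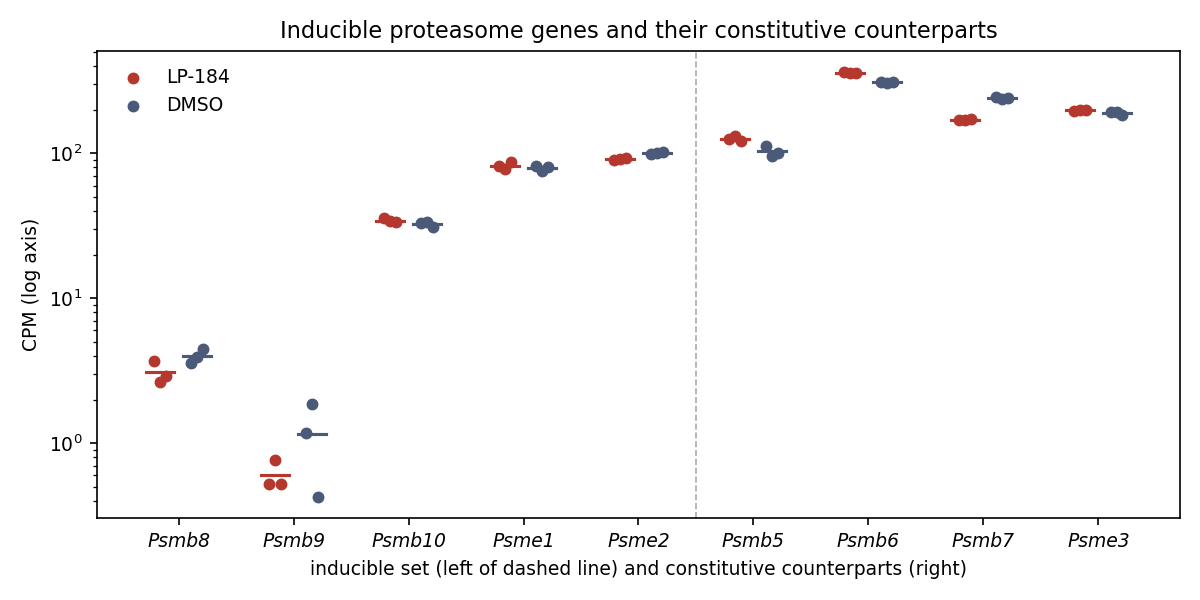
CPM (y axis, log axis) of the 5 inducible genes and their 4 constitutive counterparts, with 1 point per library (3 LP-184, 3 DMSO) and a line at each group's mean. Psmb8 and Psmb9 sit below 5 CPM in all libraries, and of the inducible genes only Psme2 has groups that do not overlap, with LP-184 lower.

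All 4 constitutive counterparts passed the test, 3 higher (Psmb5, Psmb6 and Psme3) and Psmb7 lower. Psmb5 (chromosome 14, 54614120 to 54617995), the chymotrypsin-like subunit that Psmb8 replaces, was at 125, 133 and 121 CPM with LP-184 and 112, 96.6 and 101 CPM with DMSO. Every LP-184 library was above every DMSO library (log2 fold change 0.30 ± 0.04, SE, adjusted p = 1.1e-07, limma). Psmb6 (chromosome 11, 70525324 to 70527858), the caspase-like subunit, was at 365, 361 and 358 CPM with LP-184 and 312, 307 and 312 CPM with DMSO, and rose by 0.22 ± 0.02 (SE, adjusted p = 3.6e-10, limma). Psmb7 (chromosome 2, 38588046 to 38643952), the trypsin-like subunit, went the other way, at 171, 169 and 172 CPM with LP-184 and 247, 236 and 239.8 CPM with DMSO. It fell by 0.50 ± 0.03 on the log2 scale (SE, adjusted p = 1.6e-17, limma), and the groups were far apart. Per kilobase of exon, Psmb5 averaged 141 CPM with LP-184 and 115 CPM with DMSO, Psmb6 averaged 193 CPM with LP-184 and 166 CPM with DMSO, and Psmb7 averaged 49.9 CPM with LP-184 and 70.5 CPM with DMSO. The exons of all annotated transcripts are joined here too, so these values compare the groups and not the genes. Psmb5 has a copy, Gm3375, that matches 98.9% of 796 bases and was itself at 81.5 CPM with LP-184 and 66.5 CPM with DMSO, so the level of Psmb5 is uncertain. Psme3 (chromosome 11, 101316213 to 101323537), the nuclear PA28 gamma activator, was at 197, 200.1 and 201 CPM with LP-184 and 193, 192 and 183 CPM with DMSO. Its groups did not overlap, but the rise was small (0.07 ± 0.03, SE, adjusted p = 0.025, limma). The call was lost without LP-184 replicate 2 (adjusted p = 0.056), LP-184 replicate 3 (0.077) or DMSO replicate 3 (0.168), with quantile normalization (0.062) and without the variance trend (0.115). With the length trend removed Psme3 was lower, at -0.31 (adjusted p = 6.2e-09).

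Each inducible gene was set beside a constitutive counterpart as the difference of their log2 CPM within each library. A scaling factor common to all genes of a library leaves this difference as it is. The differences are RNA ratios, and the replacement of subunits in assembled particles was not measured. Psme3 served only as a comparison for Psme1 and Psme2, and is not a subunit that they replace. These 5 differences were compared by a two-sided exact permutation test over the libraries, whose smallest possible p is 0.1 with 3 against 3. Psmb8 minus Psmb5 was -5.04, -5.61 and -5.32 with LP-184 and -4.92, -4.59 and -4.48 with DMSO. All LP-184 values were lower, and the ratio with LP-184 was 0.633 of that with DMSO (log2 change -0.66 ± 0.21, SE, exact p = 0.1, 0.17 adjusted over the 5 pairs). Quantile normalization brought this change to -0.37 (exact p = 0.2). Psmb10 minus Psmb7 was -2.26, -2.31 and -2.35 with LP-184 and -2.89, -2.80 and -2.94 with DMSO. Here all LP-184 values were higher, and the ratio with LP-184 was 1.48 times that with DMSO (0.57 ± 0.05, SE, exact p = 0.1, adjusted 0.17), where Psmb7 was the gene of the pair that passed the test. With the trend of fold change on gene length removed, described below, the change was -0.0018. Psmb9 minus Psmb6 was -9.19, -8.71 and -9.17 with LP-184 and -7.93, -7.29 and -9.21 with DMSO, with overlap (-0.88 ± 0.59, SE, exact p = 0.4, adjusted 0.5). Psme2 minus Psme3 was lower in all LP-184 libraries, at -1.14, -1.14 and -1.11, than in the DMSO libraries, at -0.95, -0.93 and -0.83 (-0.23 ± 0.04, SE, exact p = 0.1, adjusted 0.17). Psme1 minus Psme3 averaged -1.28 ± 0.08 with LP-184 and -1.26 ± 0.09 with DMSO (SD, n = 3), with overlap (-0.02 ± 0.07, SE, exact p = 0.7, adjusted 0.7).

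In the 20S core, 4 of the 14 constitutive genes rose, 7 fell and 3 did not pass the test. Of all genes 38.3% were called higher and 40.0% lower, and the main counts of every group and list below stand beside these shares. For counts on median centring the shares of all genes were 43.5% higher and 35.4% lower. For counts with the length trend removed, described below, they were 35.5% and 38.8%. The alpha ring gates the entry of the barrel. Of its 7 genes, 1 rose (Psma1, log2 fold change 0.27 ± 0.02), 4 fell (Psma2, Psma3, Psma5 and Psma6) and 2 were not called (Psma4 and Psma7), with a median of -0.21. On median centring 3 alpha genes were called higher and 4 lower. Psma3 (chromosome 12, 70969283 to 70995877) had the largest change of the ring, at 303, 324 and 317 CPM with LP-184 and 520.1, 496 and 502 CPM with DMSO. Every LP-184 library was below every DMSO library, and Psma3 was 1.61-fold lower (log2 fold change -0.69 ± 0.03, SE, adjusted p = 5.6e-23, limma). Gm13835, identical to Psma3 over 665 bases, was at 37.6 CPM with LP-184 and 59.6 CPM with DMSO. In the beta ring, Psmb3, Psmb5 and Psmb6 rose, Psmb1, Psmb2 and Psmb7 fell, and Psmb4 was at 542 ± 9.76 CPM with LP-184 and 536 ± 7.46 CPM with DMSO (SD, n = 3), so catalytic and structural beta subunits both lay on either side of 0. The largest rise of the ring was that of Psmb3, a structural subunit (0.40 ± 0.03, SE), and the ring's median was 0.01. With the length trend removed, described below, Psmb3 was at 0.06 and no longer called (adjusted p = 0.069, limma).

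In the 19S particle, 9 of 17 genes rose, 6 fell and 2 were not called, with a median of 0.24. Its 6 ATPases, Psmc1 to Psmc6, form the ring that unfolds substrates: 4 rose, Psmc6 fell by 0.07 ± 0.02 and Psmc2 was not called, although on median centring 5 were called higher and Psmc6 was at 0.01. Psmc5 (chromosome 11, 106256185 to 106263112) was at 417, 422 and 422 CPM with LP-184 and 255, 244 and 259 CPM with DMSO. That is 1.66-fold higher with LP-184, with the groups far apart (log2 fold change 0.73 ± 0.03, SE, adjusted p = 9.1e-24, limma). The other ATPases that rose were Psmc4 (0.52 ± 0.03), Psmc3 (0.37 ± 0.02) and Psmc1 (0.27 ± 0.02). With the length trend removed, described below, 5 of the 17 19S genes were called higher and 10 lower, with a median of -0.09. The ATPases then had a median of -0.02, and Psmc3 (0.01) and Psmc1 (-0.05) were no longer called.

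The 11 non-ATPase subunits had the widest spread, with 5 higher, 5 lower and 1 not called (Psmd12). Psmd4 (chromosome 3, 95032688 to 95042614), a receptor for ubiquitin chains whose promoter is printed above, was at 492, 489.7 and 495 CPM with LP-184 and 272, 259.8 and 271 CPM with DMSO. It was 1.84-fold higher, with every LP-184 library above every DMSO library (log2 fold change 0.88 ± 0.02, SE, adjusted p = 1.2e-26, limma). Psmd2 (chromosome 16, 20651122 to 20663414), a large scaffold subunit that docks ubiquitin carriers, was at 1054, 1027 and 1046 CPM with LP-184 and 621, 622 and 625 CPM with DMSO. This 1.67-fold rise (0.74 ± 0.02, SE, adjusted p = 1.3e-27, limma) left the groups far apart. Psmd1 (chromosome 1, 86064619 to 86139295), the other large scaffold subunit, was at 323, 317 and 324 CPM with LP-184 and 602, 603 and 614 CPM with DMSO. It was 1.89-fold lower (-0.92 ± 0.02, SE, adjusted p = 3.1e-28, limma), so the paired scaffold genes moved in opposite directions. Psmd14 (chromosome 2, 61711694 to 61800376), the deubiquitinase that removes ubiquitin chains at the entry of the core, was at 198, 207 and 195 CPM with LP-184 and 520.4, 522 and 529.7 CPM with DMSO. It was 2.62-fold lower in LP-184 libraries (-1.39 ± 0.03, SE, adjusted p = 1.4e-31, limma), the largest change of any member. Psmd7, its partner in a heterodimer, was higher, at 570.1, 563 and 566 CPM with LP-184 and 398, 371 and 396 CPM with DMSO (log2 fold change 0.55 ± 0.02, SE). Psmd6 and Psmd11, structural subunits of the lid, fell by 0.44 ± 0.03 and 0.32 ± 0.03 (SE).

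**Figure D3:**
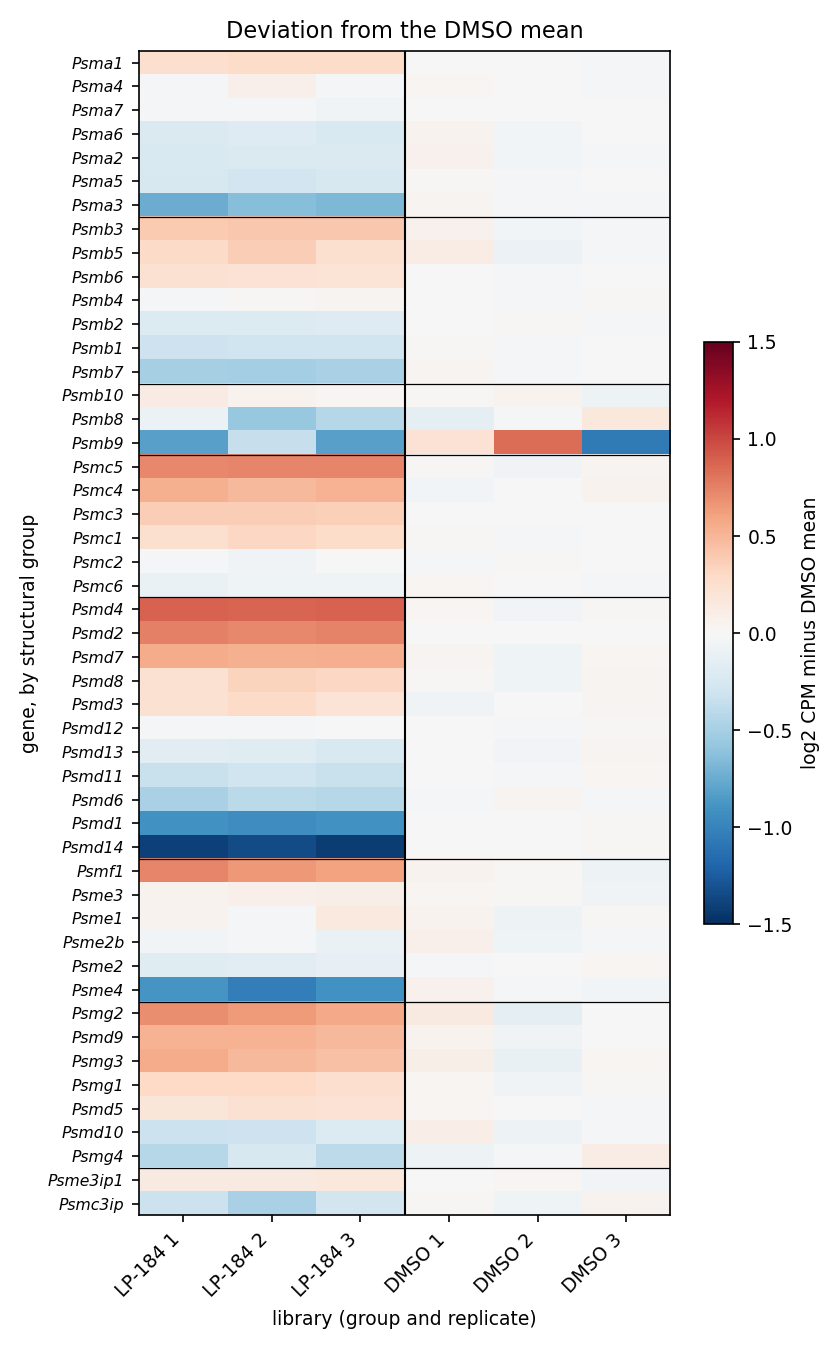
Log2 CPM of each of the 49 genes (rows, by structural group) in each of the 6 libraries (columns) minus its DMSO mean, as colour limited to 1.5 in either direction. The 3 LP-184 columns look alike in most rows, least so for Psmb8 and Psmb9, and among the tested genes Psmd14, Psme4 and Psmd1 are lowest and Psmd4, Psmd2 and Psmc5 highest.

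Among the activators and inhibitors, Psmf1 and Psme3 rose, Psme2 and Psme4 fell, and Psme1 and Psme2b were not called. Psme4 (chromosome 11, 30771775 to 30881150), the PA200 activator that opens the core without ubiquitin, was at 65.8, 59.3 and 64.9 CPM with LP-184 and 127, 120.3 and 119 CPM with DMSO. All LP-184 values were the lower ones, by 1.93-fold (log2 fold change -0.95 ± 0.04, SE, adjusted p = 1.9e-20, limma). Psmf1, which encodes the PI31 protein that binds the core and can inhibit it in vitro, was at 43.8 ± 1.87 CPM with LP-184 and 27.7 ± 1.34 CPM with DMSO (SD, n = 3), 1.58-fold higher (0.66 ± 0.06, SE, adjusted p = 9.5e-12, limma). All 7 assembly chaperones were called, where 78.3% of all genes were: 5 were higher (Psmg1, Psmg2, Psmg3, Psmd5 and Psmd9) and 2 lower (Psmg4 and Psmd10), with a median of 0.28. With the length trend removed, described below, 3 of them were called higher and 2 lower, with a median of -0.03. Psmg2, which pairs with Psmg1 to build the alpha ring, was at 44.3, 42.3 and 40.3 CPM with LP-184 and 29.9, 24.7 and 27.2 CPM with DMSO. The groups did not overlap and Psmg2 was 1.55-fold higher (0.63 ± 0.07, SE, adjusted p = 2e-10, limma). Psmg3 and Psmg4 form the other alpha-ring chaperone pair and differed in direction, at 0.49 ± 0.08 for Psmg3 and -0.35 ± 0.07 for Psmg4 (SE). Psmd5, Psmd9 and Psmd10 guide the ATPase ring, and gave 0.21 ± 0.03, 0.51 ± 0.04 and -0.28 ± 0.05 (SE), although 25.5% of the exonic bases of Psmd9 overlap Gm26745 on the other strand. Of the genes that are no subunit, Psmc3ip, a partner of the recombinases in meiosis, was at 31.8, 28.2 and 32.7 CPM with LP-184 and 40.1, 37.9 and 41.1 CPM with DMSO. It was lower in every LP-184 library (-0.36 ± 0.06, SE, adjusted p = 5.2e-06, limma), and 21.2% of its exonic bases overlap Mlx. Psme3ip1, a binding partner of Psme3, was at 0.14 ± 0.04 (SE, adjusted p = 0.0017, limma).

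The summed level of the 14 constitutive 20S genes was 4688, 4757 and 4716 CPM with LP-184 and 5180.1, 5014 and 5071 CPM with DMSO. The LP-184 sums were all lower, with a mean of 4720.4 ± 34.3 against 5088 ± 84.5 CPM (SD, n = 3), a ratio of 0.928. The 17 genes of the 19S particle summed to 6453, 6487 and 6479 CPM with LP-184 and 5888, 5829 and 5961 CPM with DMSO, a ratio of 1.099, and here the LP-184 sums were all higher. Median centring gave ratios of 0.985 and 1.167. As a mean share of the reads in the table, the 20S genes held 0.477% with LP-184 and 0.503% with DMSO. The 19S genes held 0.655% with LP-184 and 0.583% with DMSO. The 3 inducible beta genes summed to 40.0, 37.5 and 37.0 CPM with LP-184 and 38.0, 39.7 and 36.1 CPM with DMSO, with overlap and a ratio of 1.005. No test was made on the sums, in which Psmd2 and the other abundant genes weigh most.

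**Figure D4:**
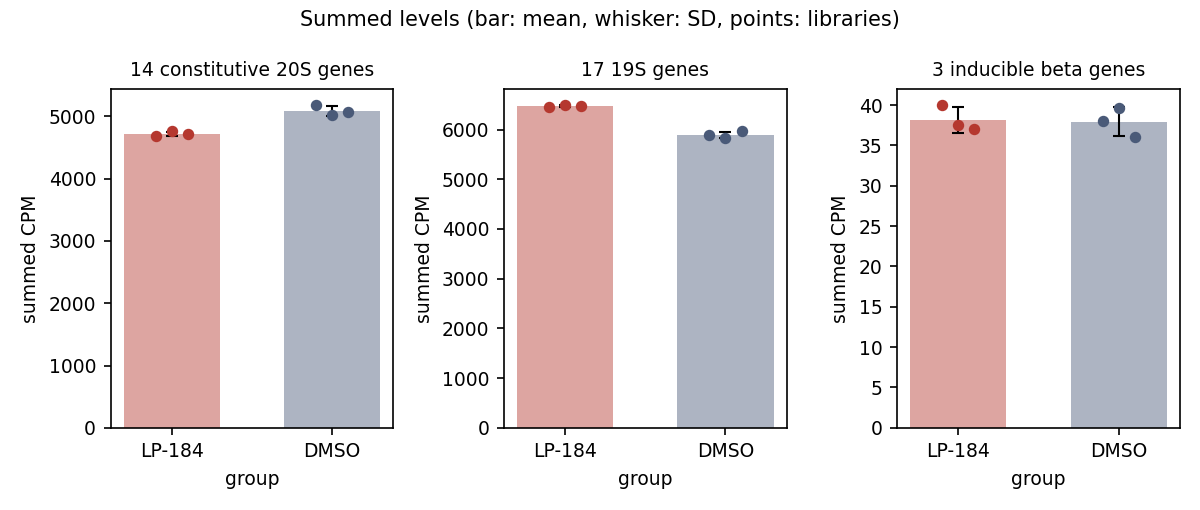
Summed CPM (y axis, from 0) of the 14 constitutive 20S genes, the 17 19S genes and the 3 inducible beta genes, with bars at the mean of the LP-184 and DMSO groups, whiskers for the SD and 1 point per library. The LP-184 points lie below the DMSO points for the 20S genes, above them for the 19S genes, and among them for the inducible genes.

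The fold change of the members moved with the length of the gene. The span is the distance between the first and last annotated base (RefSeq, GRCm38.p6). The 4 members of 50 kb or more, Psmb7 (55.9 kb), Psmd1 (74.7 kb), Psmd14 (88.7 kb) and Psme4 (109 kb), were all lower with LP-184, with a median log2 fold change of -0.93. Among the 44 shorter members 21 rose and 14 fell, and the median was 0.06. The same held for all genes: 80.2% of the 2916 genes of 50 kb or more were lower (8.06% higher, median -0.80), against 26.9% of the 8683 shorter genes (48.7% higher, median 0.16). The 50 kb limit was chosen after the values were seen. Across genes, which are not independent replicates and share the same libraries, Spearman's rho of fold change with span was -0.35 over 48 members (Pearson's r with log10 span -0.44) and -0.50 over 11599 genes (r -0.49). The members were shorter than the rest, with a median span of 11.9 kb against 21.4 kb.

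With the length trend of all genes removed (fitted by loess against the logarithm of span), 9 members came out higher and 29 came out lower (18.8% and 60.4%, against 35.5% and 38.8% of all genes). Psme4 then stood at 0.02 (adjusted p = 0.706), level with genes of its length, whereas Psmd14 remained lower at -0.66 (adjusted p = 2.6e-16), as did Psmd1 at -0.34 (9.4e-13) and Psmb7 at -0.20 (6.4e-07). Psma3, at 26.6 kb, was at -0.80 (adjusted p = 4.4e-17). The rises of Psmd4 (0.53), Psmd2 (0.41) and Psmc5 (0.35) were smaller but still called, and those of Psmb5 and Psmb6 were not. All 7 alpha-ring genes were called lower on this scale, with a median of -0.42, and so were the 4 tested inducible genes: Psmb8 at -0.64 (adjusted p = 0.0072), Psmb10 at -0.18 (0.015), Psme1 at -0.21 (0.00057) and Psme2 at -0.44 (7.7e-10), all by limma. These values are relative to genes of like length, which rose with LP-184 at spans under 30 kb.

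**Figure D5:**
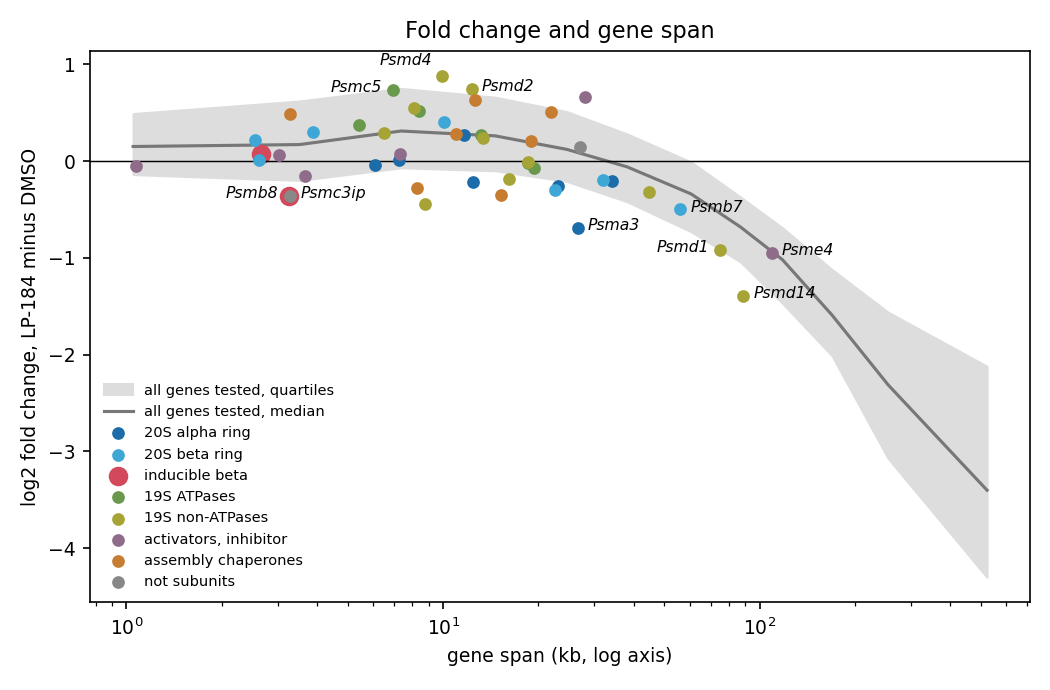
Log2 fold change (y axis, LP-184 minus DMSO) of the 48 tested members against gene span (x axis, kb, log axis), coloured by structural group, over the median and quartiles of all genes tested in bins of span. Psmd14 lies below the quartile band at 88.7 kb, Psme4 on the median line at 109 kb, and Psma3 below the band at 26.6 kb.

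The proteasome-associated genes outside the symbol rule were read from lists of known function, and the examples from each list were picked after their values were seen. Of 11 tested cofactors, 4 rose and 6 fell, with a median log2 fold change of -0.13. Zfand2a, a stress-induced proteasome-binding zinc finger protein, rose by 1.30 ± 0.03 (423 ± 5.44 CPM with LP-184, 171 ± 5.76 CPM with DMSO), and Adrm1, a ubiquitin receptor of the 19S particle, by 0.72 ± 0.03. Ecpas, an adaptor of the 26S particle, fell by 1.16 ± 0.04, and with the length trend removed it was at -0.08. Of 9 ubiquitin shuttle and Vcp genes, 5 rose and 2 fell, led by Ubqln4 (1.00 ± 0.03). Nfe2l1 encodes NRF1, the factor known to raise proteasome subunits when proteasome activity is short. Of 8 genes around it 5 rose and 3 fell: Nfe2l1 itself was at 200.2 ± 4.62 CPM with LP-184 and 171 ± 3.68 CPM with DMSO (0.23 ± 0.03, or -0.10 with the length trend removed). Ddi2, the protease that cleaves NRF1, rose by 0.66 ± 0.06, and Ngly1, the enzyme that strips its glycans, fell by 1.29 ± 0.12 (SE, adjusted p = 1.9e-11, limma). Ddi2 is counted among the shuttle and Vcp genes as well. The largest rise of the NRF1 list was that of Syvn1 (1.25 ± 0.06, SE), and the largest fall that of Fbxw7 (-1.57 ± 0.16, SE). With the length trend removed Syvn1 was at 0.87 and Fbxw7 at -0.06. The ubiquitin and E1 genes split into 3 higher and 3 lower.

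The regulators of the inducible set moved in both directions as well: of 14 tested genes 5 rose, 4 fell and 5 were not called, with a median of 0.03. Stat2 and Irf9, which act in type I interferon signalling, rose by 1.55 ± 0.11 and 1.48 ± 0.13 (SE), and Irf1, the interferon regulatory factor known to act on Psmb8 and Psmb9, was at 30.9 ± 1.19 CPM with LP-184 and 18.4 ± 0.922 CPM with DMSO (0.74 ± 0.07, SE, adjusted p = 5.2e-11, limma). The 4 that fell were Irf2 (-0.91 ± 0.09), Jak1 (-0.82 ± 0.04), Jak2 (-0.61 ± 0.06) and Stat3 (-0.25 ± 0.05, SE). With the length trend removed these 4 were at 0.04, 0.18, -0.23 and -0.01, and Stat2, Irf9 and Irf1 at 1.36, 1.10 and 0.37. Nlrc5, the activator of class I genes, was at 1.79 ± 0.364 CPM with LP-184 and 2.50 ± 0.834 CPM with DMSO, with overlap (-0.43 ± 0.26, SE, adjusted p = 0.133, limma). Of 9 peptide-loading genes, 4 rose, 4 fell and 1 was not called, with a median of 0.00. Tap1 and Tap2, the peptide transporter genes beside Psmb9 and Psmb8 on chromosome 17, fell by 1.00 ± 0.23 and 1.08 ± 0.17 (SE), to 1.72 ± 0.293 and 3.06 ± 0.481 CPM with LP-184, against 3.55 ± 0.669 and 6.55 ± 0.321 CPM with DMSO (SD, n = 3). Erap1, a peptidase that trims peptides in the endoplasmic reticulum, had the largest change of the list and fell by 1.39 ± 0.08 (SE). Tapbp, which encodes the peptide-loading chaperone tapasin, rose by 1.05 ± 0.04, and B2m, the light chain of class I molecules, by 0.97 ± 0.02 (SE).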

How the data were processed

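The authors deposited log2 CPM values for 12656 genes in 6 libraries (3 LP-184, 3 DMSO), and a table of their own fold changes with p-value and adjusted p-value columns, whose test the sources used here do not name. Per the submitters' processing notes, the tools were edgeR, featureCounts, Subread 2.0, STAR 2.7 and fastp, and the builds hg38 and mm10, without their roles, annotation or strand setting. In every library the deposited value for 0 reads is -3.34, and with that offset removed 100% of values came out as whole reads (tolerance 1e-06), which gives the depth. The offset understates the change of low genes, and the precision of genes such as Psmb9 is limited by their few reads.

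The deposited log2 values were tested with limma 3.58.1 in R 4.3.3 (a two-sided test of 2 groups with empirical Bayes and a variance trend on the mean, Benjamini-Hochberg over 11931 genes, threshold 0.05). Summaries used Python 3.11.15, pandas 2.3.3, numpy 2.4.6 and scipy 1.17.1. Fold changes are LP-184 minus DMSO. The members and gene lists were chosen with earlier results of these data known. Values in every library are given for the inducible set, its constitutive counterparts, the 3 largest rises and falls, and the largest change of each structural group. Positions, spans and promoters come from RefSeq (GRCm38.p6, the mm10 assembly), with 96.6% of symbols matched, and exon lengths and overlaps from GENCODE (95.9%). Of the members, 17 have a copy of at least 90% identity over 300 bases or more, and 16 share exonic bases with another gene. Alternatives were other scalings, offsets, filters and variance models, voom on the recovered reads, a stricter threshold, a minimum fold, each library left out, the replicate number as a block, and removal of the length trend by loess (span 0.3). The GENCODE version of that trend was chosen after seeing the data. Of the regulators of the inducible set, 1 gene is counted with its list and its values are not reported here.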

Additional observations from a re-analysis of the deposited data

How the results depend on the processing

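Of all genes, 4915 were called with a minimum of 1.5-fold, and 8466 (stricter filter, with fewer genes tested) to 9567 (no filter) under the other alternatives, with 9375 by voom on the recovered reads and 9341 as reported. Leaving out each library gave 9048 to 9125 genes, 20 to 21 members higher and 18 to 19 lower. A minimum of 1.5-fold left 5 members higher and 4 lower. Removing the length trend gave 9 higher and 29 lower with RefSeq spans, and 12 and 28 with GENCODE spans. Among the genes followed under every alternative, directions reversed under it, with the RefSeq value first and the GENCODE value after it, for Psmb10 (-0.18, -0.21), Psme1 (-0.21, -0.23), Psmb6 (-0.03, -0.06), Psme3 (-0.31, -0.31), Nfe2l1 (-0.10, -0.09) and Nlrc5 (0.35, 0.33), and for Psmb5 (GENCODE -0.0024) and Psme4 (RefSeq 0.02). Of the other called members, with RefSeq spans, Psma1 (-0.06), Psmd3 (-0.08) and Psmd8 (-0.09) turned to calls in the lower direction, and Psmc1 (-0.05), Psmd5 (-0.03) and Psmg1 (-0.05) turned sign and were no longer called. Psmb3 (0.06), Psmc3 (0.01) and Psme3ip1 (0.04) kept their sign and were no longer called. Psmb10 minus Psmb7 became -0.0018 and Psme1 minus Psme3 0.08. Without a library, Psmb8 minus Psmb5 ranged between -0.80 and -0.52 (-0.37 with quantile normalization of all libraries), Psmb9 minus Psmb6 between -1.41 and -0.45, Psmb10 minus Psmb7 between 0.54 and 0.61, and Psme2 minus Psme3 between -0.25 and -0.19. Psme1 minus Psme3 ranged between -0.06 and 0.03 and turned to 0.03 without LP-184 replicate 2 and 0.02 without DMSO replicate 3. Same-numbered libraries did not deviate together (correlations -0.01, -0.018 and -0.006). These values cannot show whether the cultures were handled in pairs, and no label states it. With the replicate block 9291 genes, 21 members higher and 18 lower were called. Psmb9 rests on 38 reads with LP-184 and 70 with DMSO, of which the DMSO libraries held 8 to 40 each.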
